A study of Mus musculus with 3 samples.

Results

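Chaperones are proteins that help other proteins to fold, assemble and stay soluble. The 42 genes described here, of 50600 in the deposited tables, encode chaperones and co-chaperones of the cytosol, the endoplasmic reticulum (ER) and the mitochondrion. They were taken by name from a list of heat shock, chaperonin and co-chaperone genes, and all 42 were found. The samples were 3 libraries of primary mouse regulatory T cells of strain C57BL/6NJ, which per the file headers had been activated for 16 hours. Regulatory T cells are CD4 T cells that restrain immune responses and depend on the transcription factor Foxp3. The libraries are numbered biological replicates 2, 3 and 4 and form 1 group, so genes were compared within each library and libraries with each other. The linked differentiation protocol is named for CD4 T cells, and the labels do not say whether the cells were differentiated in culture, from how many animals they came, or of which age or sex. All 3 libraries carry 1 donor identifier and no label names separate animals, so the SDs and p-values cover only how these libraries differ from each other, which may be partly technical.

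HSP90 and HSP70 are the main ATP-driven chaperones of the cytosol. HSP70 binds stretches of unfolded protein with the help of J-domain proteins, and HSP90 acts later, on kinases, steroid receptors and other clients handed over through co-chaperones. The ring-shaped chaperonins enclose folding proteins, CCT (also called TRiC) in the cytosol and HSP60 with its lid HSP10 in the mitochondrion. The ER has its own HSP70 and HSP90 proteins, lectin chaperones for glycoproteins and disulfide isomerases. In many cells the heat shock factor Hsf1 raises cytosolic chaperone genes under stress, whereas the unfolded protein response raises those of the ER. T cells that have been activated grow and divide, and make much new protein.

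Depth was 41222058, 47665060 and 99097524 fragments in replicates 2, 3 and 4. Levels are given as TPM, the count over the deposited exon length of the gene, scaled to the same total in each library. Each of the 8 markers of regulatory T cells reached 1 TPM in every library, as did 45.6% of protein-coding genes. That threshold alone thus says little about the label. Foxp3 was at 80.9 ± 3.97 TPM (SD, n = 3) and Ikzf2 was lowest at 3.22 TPM. All 4 general T cell markers were above 100 TPM. Of 25 markers of other cell types, 23 stayed below 1 TPM in every library, and 9, among them Lyz2, Csf1r, S100a8 and Col3a1, had no fragment. The exceptions were Cd8b1 at 26.9 TPM, beside Cd8a at 0.416 TPM, and Cd79a at 1.12 TPM. The summed level of all 25 markers of other cell types was 31.8, 32.3 and 27.6 TPM in replicates 2, 3 and 4. Although the donor identifier is shared, Xist, an RNA of the inactive X chromosome, was at 126, 0.331 and 36.1 TPM, and the Y-linked gene Ddx3y at 0.126, 39.3 and 28.4 TPM. Replicate 2 was thus high in Xist, replicate 3 in Ddx3y, and replicate 4 held both RNAs, so the libraries differed in their make-up of cells with Xist and with Y-linked RNA.

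Promoter sequences are shown first for the genes with a 3-unit heat shock element or a full ER stress element, and for the inducible HSP70 genes, because the levels of these genes are described in the results. The sequences are from RefSeq (GRCm38.p6) and span 250 bases before to 50 after each annotated start. A window was present for 34 of the 42 genes. Those without one are Hsp90aa1, Hsp90ab1, Hspa8, Hspa9, Cct4, Dnajc2, Ppid and Hsf1. Each motif was searched on both strands, and a match is a run of letters, not a shown binding site.

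The heat shock element is the site that Hsf1 is known to bind, built of inverted repeats of GAA. With 3 units in a row (GAANNTTCNNGAA or TTCNNGAANNTTC, which may overlap each other) it was present in Hspd1, Hspe1, Hsph1 and Dnajb6, 4 of 34 windowed members, and in 0.663% of 26994 genes with a window. With 2 units (GAANNTTC or TTCNNGAA, which every 3-unit element also contains) it was present in 13 members and in 17.0% of all genes. These were the 4 above, Hspa1a and Hspa1b, and also Hspb1, Cct2, Cct5, Cct6a, Dnaja1, Cdc37 and Fkbp4, which are named only. Capitals mark the element below. Hspe1 is at chr1:55088054-55088081 on the plus strand, Hsph1 at chr5:149636287-149636305 on the minus strand, Dnajb6 at chr5:29735847-29735869 on the plus strand, Hspa1a at chr17:34972248-34972265 and Hspa1b at chr17:34959330-34959347, both on the minus strand. The first 3 carry 3 or more units, the last 2 carry 2 units.
Hspe1: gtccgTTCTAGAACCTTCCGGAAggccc
Hsph1: gcagaTTCTGGAAAGTTCt
Dnajb6: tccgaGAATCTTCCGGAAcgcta
Hspa1a: tgctgGAAGATTCctggc
Hspa1b: tgctgGAAGATTCctggc
The Hspe1 element starts 89 bases before the annotated start and lies in the window of Hspe1 and in a window of Hspd1. These windows are head to head on opposite strands and overlap by 285 bases. Hspd1 has a further window, at chr1:55088194-55088493, that does not hold the element. The Dnajb6 element starts 46 bases before the start and that of Hsph1 36 bases after it. The windows of Hspa1a and Hspa1b, the neighbouring stress-inducible HSP70 genes, are identical at 296 of 300 positions (98.7%), and their element starts 104 bases before the start in each. In GENCODE M21 the stretches of Hsph1 and Dnajb6 lie in the first exon of a transcript of the same gene. On the other strand, that of Dnajb6 also overlaps a first exon of Gm5129, and that of Hspe1 overlaps a first exon of Hspd1. The stretches of Hspa1a and Hspa1b lie upstream of the annotated exons.

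The ER stress element, a CCAAT box followed at a fixed distance by CCACG, is bound in the unfolded protein response. Its full form (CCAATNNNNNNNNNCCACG) was found in 5 members, Hspa5, Hsp90b1, Calr, Canx and Pdia6, and in 0.137% of all genes. All 8 ER members had a window, and the 5 that matched are all ER genes. The elements shown are at chr2:34772020-34772048 (plus strand) for Hspa5, chr10:86705528-86705661 (minus) for Hsp90b1, chr8:84847070-84847098 (minus) for Calr, chr11:50325795-50325823 (minus) for Canx and chr12:17266486-17266514 (plus) for Pdia6, each 5′ to 3′ in the direction of the gene.
Hspa5: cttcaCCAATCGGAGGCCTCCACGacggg
Hsp90b1: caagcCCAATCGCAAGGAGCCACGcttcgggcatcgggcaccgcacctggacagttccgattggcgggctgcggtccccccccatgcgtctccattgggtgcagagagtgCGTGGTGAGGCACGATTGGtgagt
Calr: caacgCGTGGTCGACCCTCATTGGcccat
Canx: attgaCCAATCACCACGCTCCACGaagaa
Pdia6: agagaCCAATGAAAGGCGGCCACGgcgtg
Hsp90b1 carries 2 copies, the second on the opposite strand, and the Calr copy is also on the opposite strand. The Hspa5 stretch lies in an annotated first exon of GENCODE M21, and the other 4 lie upstream of the exons. The CCAAT box alone is common, in 23 members and 41.0% of all genes, and TATAAA was found in Stip1 and Calr and in 15.7% of all genes.

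Most of the chaperone genes were abundant. In every library 35 of the 42 were at 100 TPM or more, a level that 8.80% of the 21764 protein-coding genes reached. The median of all 42 was 447 TPM against 0.355 TPM over all protein-coding genes. Among genes at a mean of 1 TPM or more it was 524 TPM for 39 members and 31.2 TPM for 10144 protein-coding genes. Dnajb1, Dnaja3, Dnaja1 and Dnajb6 were between 10 and 100 TPM, and Hspa1a, Hspa1b and Hspb1 below 1 TPM in every library. Summed, the 42 genes held 3.34%, 3.25% and 3.26% of all TPM, a mean of 3.28% ± 0.05 (SD, n = 3). Hsp90ab1 alone held 28.7% of that sum, and with Hspa8, Hspd1, Calr and Cct2 the leading 5 genes held 50.9%. By role, cytosolic HSP90 held 31.8%, CCT 19.3%, the ER genes 14.4%, the mitochondrial genes 11.7%, cytosolic HSP70 and HSP110 10.7%, HSP90 co-chaperones 9.86%, J-domain proteins 1.70%, and Hsf1 with Hspb1 0.522%.

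**Figure D1:**
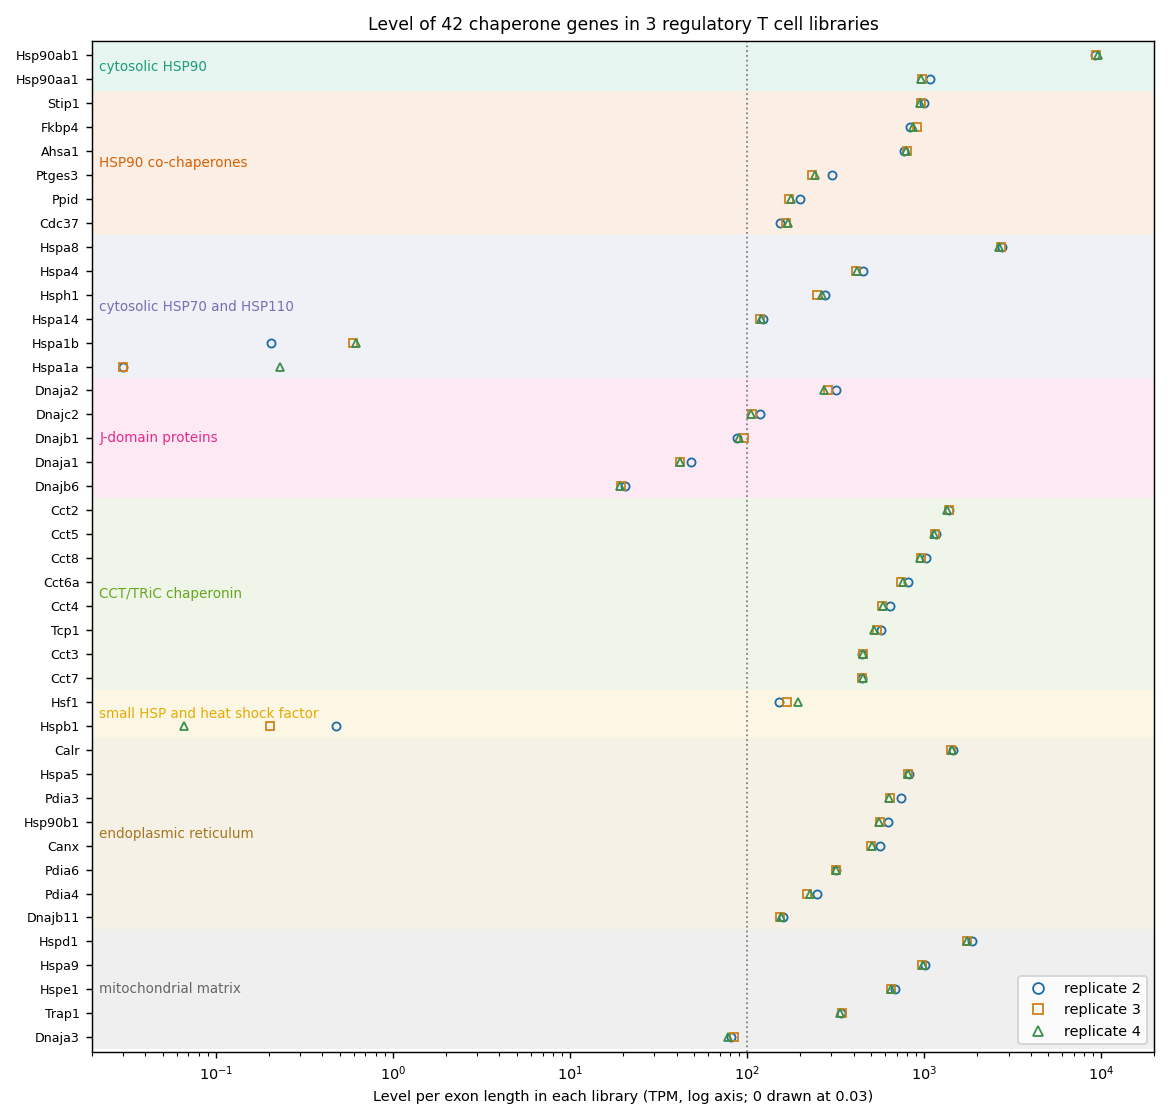
Level of each of the 42 genes (TPM, log axis) in replicates 2, 3 and 4, grouped by role and ordered by mean within each group; the dotted line is at 100 TPM and values of 0 are drawn at 0.03. The 3 symbols of a gene mostly lie on top of each other, and Hspa1a, Hspa1b and Hspb1 stand apart below 1 TPM.

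Among the cytosolic HSP90 genes, Hsp90ab1, the constitutive form, was at 9276, 9413 and 9558 TPM in replicates 2, 3 and 4 (9416 ± 141, SD, n = 3). It ranked 2 among all protein-coding genes. Hsp90aa1, the form that stress is known to induce, was at 1085, 977 and 962 TPM (1008 ± 66.6). Every library had Hsp90ab1 far above Hsp90aa1, with no overlap. The log2 ratio of (TPM + 1) was 3.10, 3.27 and 3.31, a mean of 3.22 ± 0.11 (SD) or 9.34-fold. Of the 100-base stretches of Hsp90aa1, 38.0% are also in a transcript of another annotated gene, and fragments that align to several genes were by default not counted. With each exon length reduced by that share the log2 ratio was 2.54 (same sign in 3 of 3 libraries). Hsp90ab1 is at chr17:45567775-45573271 and Hsp90aa1 at chr12:110690605-110702728, both on the minus strand of mm10.

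For this and the other 7 pairs of genes compared here, flipping the signs of the 3 library differences in an exact permutation test (two-sided) gave p = 0.25 (0.25 after Benjamini-Hochberg adjustment over the 8 pairs). That is the smallest p the design allows, so no pair can pass a threshold of 0.05. In all 8 pairs the sign was the same in 3 of 3 libraries.

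The co-chaperones that feed, pace and release HSP90 were ordered Stip1, Fkbp4, Ahsa1, Ptges3, Ppid and Cdc37 in each library. Stip1, which links HSP70 to HSP90, was at 970 ± 24.6 TPM. Fkbp4 and Ppid, immunophilins that bind HSP90, were at 869 ± 39.1 and 183 ± 14.0 TPM. Ahsa1, the activator of the HSP90 ATPase, was at 790 ± 15.9 TPM, and Cdc37, which brings kinases to HSP90, at 163 ± 8.90 TPM. No neighbours in that order overlapped, although Ppid exceeded Cdc37 by only 0.16 ± 0.18 on the log2 scale. That order depended on the length used. Over principal transcripts Fkbp4 (761 TPM) was above Stip1 (694 TPM) and Ppid (336 TPM) above Ptges3 (200.4 TPM) in 3 of 3 libraries, without overlap. Ptges3, which encodes the late-acting co-chaperone p23, varied more, with 304, 234 and 243 TPM (260 ± 37.8). Replicate 2 lay above the other libraries, and the ratio of its scaled count to the lowest was 1.26. Ptges3 shares 17.3% of its 100-base stretches with other annotated genes, so its level may be too low.

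Of the cytosolic HSP70 genes, Hspa8, the constitutive form, was at 2767, 2715 and 2658 TPM (2713 ± 54.4) and ranked 21 among protein-coding genes. The stress-inducible genes Hspa1a and Hspa1b were nearly silent. Hspa1a was hit by 0, 1 and 20 fragments in replicates 2, 3 and 4 (0, 0.0235 and 0.231 TPM), and a count of 0 allows up to 0.0828 TPM in replicate 2. Hspa1b had 7, 24 and 51 fragments, or 0.205, 0.597 and 0.623 TPM. Replicate 2 was lowest for both genes, and replicates 3 and 4 were close to each other for Hspa1b only. Hspa8 exceeded the sum of Hspa1a and Hspa1b by 11.17, 10.71 and 10.49 on the log2(TPM + 1) scale, a mean of 10.79 ± 0.35, and the added 1 TPM understates that ratio. With 0.1 TPM added in its place the mean was 12.16. Hspa8 shares 28.2% of its 100-base stretches with other annotated genes. The inducible copies share 48.6% (Hspa1a) and 49.9% (Hspa1b) of theirs. Fragments from shared stretches were by default not counted, so the levels of both copies and the limit from a count of 0 may be too low. With lengths reduced by these shares the log2 ratio was 10.86.

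Hspa4 and Hsph1 encode HSP110 proteins, which exchange the nucleotide on HSP70. They were at 451, 411 and 420 TPM (427 ± 21.1) and at 274, 250 and 264 TPM (263 ± 12.3). Hspa4 was above Hsph1 in every library, by 0.71, 0.71 and 0.67 on the log2 scale (0.70 ± 0.03). That order rests on the length used. The deposited length merges the exons of all isoforms and is 7266 bases for Hsph1, against 3802 for its principal transcript. Over principal transcripts the difference was 0.03 ± 0.03, with the same sign in 2 of 3 libraries (exact sign-flip permutation p = 0.5). Hspa14, an HSP70 that works at the ribosome, was at 121 ± 2.69 TPM.

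J-domain proteins, which stimulate the ATPase of HSP70, were the least abundant large group. Dnaja2 was at 317, 288 and 274 TPM (293 ± 21.8), above Dnajc2, a J-domain protein of the ribosome, at 110 ± 7.11 TPM and Dnajb1, a main partner of HSP70 in the heat shock response, at 91.1 ± 4.17 TPM. Dnaja1 was at 48.4, 41.8 and 41.6 TPM (43.9 ± 3.85), and Dnajb6, which keeps aggregation-prone proteins soluble, at 19.7 ± 0.60 TPM. Dnaja1 was below Dnaja2 in every library, by -2.69, -2.75 and -2.69 on the log2 scale (-2.71 ± 0.04). Over principal transcripts the difference was -1.40, and the level of Dnajb6 was 51.7 ± 1.63 TPM and that of Dnaja1 78.0 ± 6.94 TPM, since their deposited lengths of 6062 and 8629 bases compare with transcripts of 1605 and 3376 bases. Dnaja1 was then above Dnajb1 (67.6 TPM) in 3 of 3 libraries. Dnajb6 and Dnaja1 share 14.6% and 9.21% of their 100-base stretches with other annotated genes. Replicate 2 was highest for 4 of the 5 J-domain genes and replicate 4 lowest for 4 of 5.

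The CCT chaperonin, which folds actin and tubulin among other clients, is a double ring with 8 different subunits in each ring. Its 8 genes lie on 8 different chromosomes, and all were at 443 TPM or more in every library. Cct2 was at 1383, 1379 and 1355 TPM and Cct5 at 1168, 1150 and 1144 TPM. These were the leading subunits in every library. Cct8 followed at 1027, 959 and 947 TPM, Cct6a at 814, 739 and 765 TPM and Cct4 at 641, 577 and 589 TPM. Tcp1, the gene of the first subunit, was at 572, 545 and 521 TPM. Down to Tcp1, each subunit was above the next in all libraries without overlap. Cct3 was at 446, 450 and 450 TPM and Cct7 at 445, 443 and 450 TPM. The order of the subunits was the same in 3 of 3 libraries, and only Cct3 and Cct7 overlapped, with a log2 difference of 0.01 ± 0.01.

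The spread between subunits depended on the gene length. By deposited length the highest subunit was 3.08-fold above the lowest, with a coefficient of variation (CV) over the 8 subunits of 43.8%. Over 1 principal transcript for each gene the ratio was 1.76-fold and the CV 21.6%. Cct3 and Cct7 moved most, from 449 to 1004 TPM and from 446 to 861 TPM, because their deposited lengths are 6370 and 6778 bases and their transcripts 1977 and 2441 bases. Cct4 was then lowest, at 707 TPM, and Cct2 and Cct5 were both highest with overlapping ranges (1244 and 1215 TPM). For Cct6a, annotated as a processed transcript in the release used for these lengths, the longest transcript was taken. In 3 of 3 libraries the ratio of highest to lowest subunit was smaller on the transcript scale, at 1.67, 1.85 and 1.78 against 3.10, 3.11 and 3.01.

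**Figure D2:**
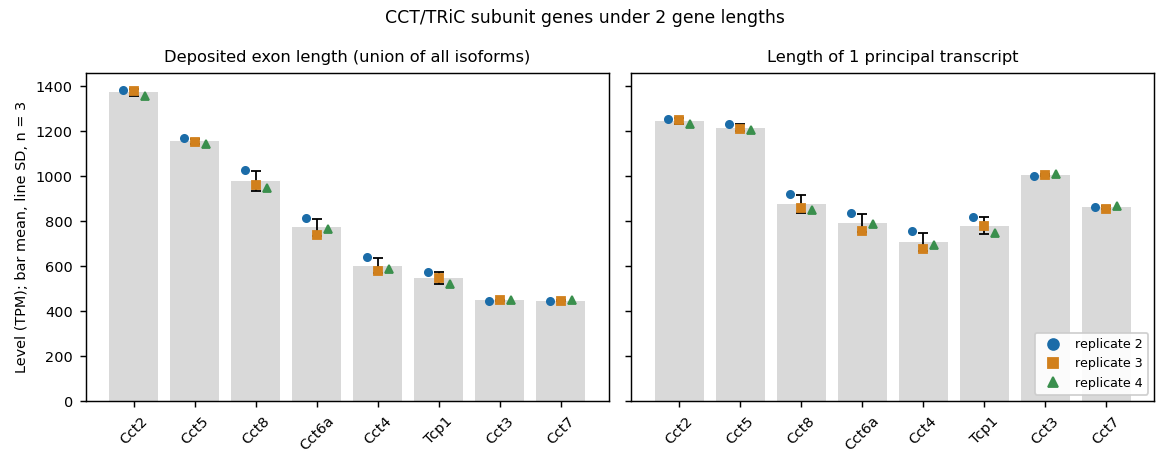
Level of the 8 CCT subunit genes (TPM; bars are means, lines SDs, n = 3, symbols the libraries) over the deposited exon length on the left and over 1 principal transcript on the right, in the same gene order. The steps from Cct2 down to Cct7 on the left span 3.08-fold, and those on the right 1.76-fold.

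Hsf1, the transcription factor of the heat shock response, was at 151, 167 and 195 TPM (171 ± 21.9), lowest in replicate 2 and highest in replicate 4, with a scaled ratio of 1.30. Hspb1, the small heat shock protein HSP27 that holds unfolded proteins, had 6, 3 and 2 fragments, or 0.477, 0.203 and 0.0664 TPM. Replicates 3 and 4 thus held no more than the 3 fragments that a count of 0 would allow. The sequence of Hspb1 is shared over 44.0% of its 100-base stretches with other annotated genes.

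The 8 ER genes were all above 100 TPM and kept the same order in 3 of 3 libraries, although over principal transcripts Hsp90b1 (579 TPM) was above Pdia3 (529 TPM) in 3 of 3 libraries with overlapping ranges, the reverse of the order below. Calr (calreticulin), a soluble lectin chaperone that holds glycoproteins in the ER, was at 1451, 1422 and 1432 TPM (1435 ± 14.9). Canx (calnexin), its membrane-bound counterpart, was at 565, 501 and 506 TPM (524 ± 35.5). Calr was above Canx by 1.36, 1.503 and 1.499 on the log2 scale (1.45 ± 0.08), without overlap. Hspa5 (BiP), the HSP70 of the ER and the sensor-binding protein of the unfolded protein response, was at 821, 817 and 809 TPM (816 ± 5.76). Hsp90b1 (GRP94), the HSP90 of the ER, was at 629, 565 and 558 TPM (584 ± 39.1). Hspa5 exceeded Hsp90b1 by 0.38, 0.53 and 0.54 (0.48 ± 0.09), and by 0.18 ± 0.09 over principal transcripts. Hsp90b1 and Canx, neighbours in the order, had overlapping ranges.

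The disulfide isomerases, which form and rearrange disulfide bonds, were led by Pdia3 at 744, 639 and 635 TPM (673 ± 61.8), with replicate 2 above the others. Pdia6 was at 316, 317 and 318 TPM (317 ± 1.06), the smallest CV of the 42 genes at 0.334%. Pdia4 was at 232 ± 14.1 TPM and Dnajb11, the J-domain partner of BiP, at 156 ± 3.61 TPM. The 5 genes with the ER stress element shown above ranked between the first (Calr) and the sixth (Pdia6) of the 8 ER genes in level.

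In the mitochondrion, Hspd1 (HSP60) was at 1869, 1737 and 1748 TPM (1785 ± 72.8) and ranked 44 among protein-coding genes, and its lid Hspe1 (HSP10) was at 686, 648 and 648 TPM (661 ± 21.8). These genes, at chr1:55077835-55088243 on the minus strand and chr1:55088132-55091307 on the plus strand of mm10, overlap at their starts and were counted by strand. The log2 ratio of Hspd1 to Hspe1 was 1.44, 1.42 and 1.43 (1.43 ± 0.01), the smallest SD of the 8 pairs. Over principal transcripts it was 0.63 ± 0.01. Hspd1 shares 23.4% of its 100-base stretches with other annotated genes. Both genes were highest in replicate 2, which on scaled counts was the highest library for 23 of the 40 members tested. The element printed above is common to a window of each, and its part in their levels was not tested. Hspa9 (mortalin), the HSP70 of the matrix, was at 990 ± 24.0 TPM, Trap1, the mitochondrial HSP90, at 339, 346 and 336 TPM (340 ± 4.90) and Dnaja3, a J-domain partner of Hspa9, at 81.1 ± 2.97 TPM. Hsp90b1 exceeded Trap1 by 0.89, 0.71 and 0.73 (0.77 ± 0.10), so that the HSP90 genes of the 3 compartments were ordered cytosol, ER and mitochondrion in every library.

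**Figure D3:**
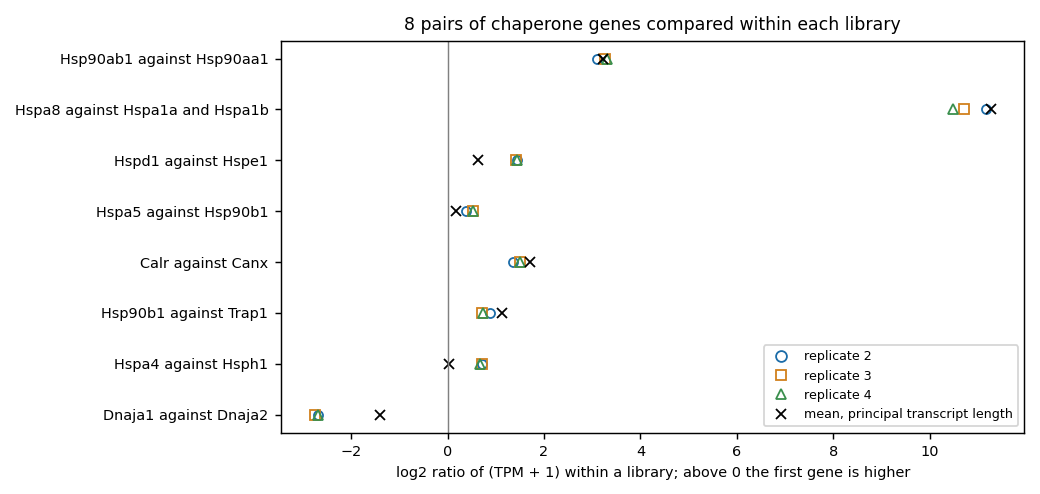
Log2 ratio of (TPM + 1) for 8 pairs of chaperone genes in replicates 2, 3 and 4 (open symbols, deposited exon length), with the mean over principal transcripts as a cross; above 0 the first gene is higher. The libraries of a pair lie close together, and the cross of Hspa4 against Hsph1 is at 0.03.

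Between the libraries the chaperone genes differed little. For each gene with 30 or more fragments in all, a chi-square test asked whether the 3 libraries had equal rates, and calls required a ratio of at least 1.5 between the highest and the lowest library as well as an adjusted p under 0.05. Of the 40 members tested, 1 was called, against 16.1% of 13688 genes tested; Hspb1 and Hspa1a had too few fragments to enter. The gene called was Hspa1b (ratio 3.08, adjusted p = 0.0187 by the chi-square test with edgeR's library sizes, on 7, 24 and 51 fragments). Without replicate 2 the number of members called was 0, against 9.33% of all genes tested in that setting. By the adjusted p alone 36 of 40 members differed, against 70.5% of all genes. The test takes only counting error into account, so at high counts small differences pass. Among protein-coding genes at a mean of 100 TPM or more, 0.0498% were called and 0 of 35 members. With a looser ratio threshold, which 27.5% of all genes tested passed, Ptges3 and Hsf1 joined Hspa1b.

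The median ratio of highest to lowest library was 1.07 over the 40 members and 1.19 over all genes tested. At 100 TPM or more it was 1.06 for 35 members and 1.11 for 2010 protein-coding genes. The median CV at that level was 4.40% for the members and 4.91% for all, and 22 of 35 members lay below the latter. Hence the narrow spread of the chaperone genes was near that of protein-coding genes at 100 TPM or more. Levels were not matched within that range, where the median was 584 TPM for the members and 188 TPM for all. The CV was below 1.5% for Pdia6, Cct3, Hspa5, Cct7, Calr, Cct5, Cct2, Trap1 and Hsp90ab1.

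On counts scaled with edgeR's library sizes (TMM), the small differences had a direction. Replicate 4 was lowest for 22 of the 40 members and highest for 3 (Hspa1b, Hsf1 and Cdc37), whereas it was lowest for 26.6% of all genes tested. Replicate 2 was highest for 23 of 40, against 34.6% of all. These shares cover tested genes of every level. Whether other abundant genes had the same direction was not tested. With DESeq2 size factors replicate 4 was lowest for 26 members (28.2% of all genes), and with library totals alone for 23 (28.5%). By TPM, replicate 4 was also highest for Hsp90ab1, Cct3, Cct7 and Pdia6. The summed TPM of the members was 3.25% in replicate 3 and 3.26% in replicate 4, so the direction depended in part on the scale. The median difference from the mean of a gene was 0.02 in replicate 2 and -0.02 in replicate 4 on the log2 scale, against -0.01 and 0.01 over all genes. Replicate 4 was also the deepest library, and Xist and Ddx3y differed between libraries as given above; their part in these differences was not tested. In bulk RNA a change within cells and a change in which cells were present cannot be told apart.

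**Figure D4:**
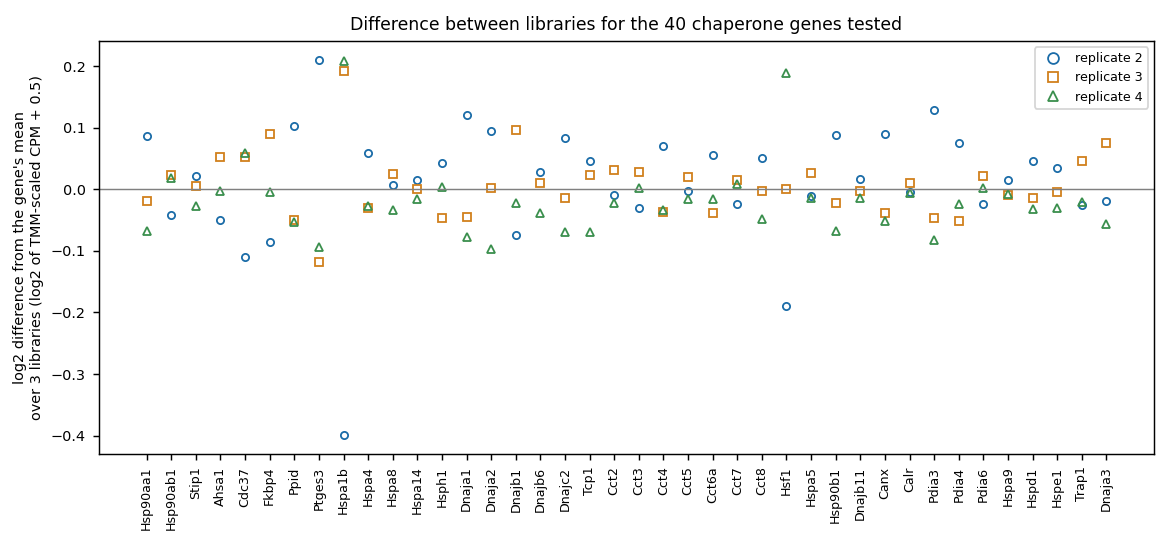
Log2 difference of each library from the mean of the gene over the 3 libraries (log2 of TMM-scaled CPM + 0.5) for the 40 genes tested. Triangles (replicate 4) lie lowest for 22 genes, circles (replicate 2) lie highest for 23, and Hspa1b, Hsf1 and Cdc37 have the opposite order.

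The other genes of the chaperone network were read from a list of 79. Of these, 26 reached 100 TPM in every library, whereas 14 stayed below 1 TPM throughout, 7 of these without a fragment; the median was 48.3 TPM and the sum 0.757% of TPM. The 6 highest were P4hb, a disulfide isomerase of the ER, at 705 ± 9.69 TPM, Nudc, a partner of HSP90, at 665 ± 10.1 TPM, the HSP70 nucleotide exchange factor Bag1 at 370 ± 23.8 TPM, the HSP70 partner St13 at 314 ± 14.0 TPM, Hspbp1, another exchange factor, at 306 ± 24.2 TPM, and the mitochondrial protease Lonp1 at 259 ± 16.0 TPM. The lowest with any fragment were Cct6b with 2, 0 and 4 fragments, Hsf5 with 0, 0 and 10 and Cryaa with 0, 0 and 1. Cct6b is the paralog of Cct6a known from testis.

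Abundance differed by family among these genes as well. All 18 partners of HSP90 and HSP70, all 15 further J-domain proteins and all 8 mitochondrial genes reached 1 TPM in every library, and 7 of 8 prefoldin and chaperonin genes did. Of 8 further small heat shock proteins, 6 stayed below 1 TPM and 4 had no fragment, like their relative Hspb1 at the low end. By the same test 4 of 69 were called between libraries, against 16.1% of all genes. They were Hspb6 (ratio 1.92) and Pdia5 (1.95), each highest in replicate 3, Hsf4 (2.99), highest in replicate 2, and Hspb7 (2.57), highest in replicate 4. Their mean levels were between 0.621 TPM (Hspb7) and 4.00 TPM (Hspb6).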

How the data were processed

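For 3 libraries of 1 group, the authors deposited unnormalized fragment counts with exon lengths and coordinates. Counting used featureCounts 1.4.6-p4 (paired, reverse-stranded, exons of GENCODE mouse M13) per the file headers, and the build is mm10 per the labels. Aligner version and settings: not given in the sources used here. No option for multi-mapping or overlapping fragments is recorded, so near-identical genes can be undercounted. The assay label names total RNA, whereas the linked library protocol is named for polyadenylated RNA.

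Symbols and principal transcript lengths came from GENCODE M21 by unversioned identifier (50376 of 50600 matched). TPM was computed as count over deposited exon length, scaled per library. With 1 group, edgeR's quasi-likelihood test has nothing to compare, so the comparison of libraries used a chi-square test (2 degrees of freedom, Benjamini-Hochberg over all genes with 30 or more fragments, on TMM sizes from edgeR 4.0.16), and pairs by exact sign-flip tests on log2 (TPM + 1). A lowest count of 0 was set to 3 fragments in ratios. All 42 members are named with a level, and pair members, CCT subunits and genes called are given by library; of the other chaperones the 6 highest, the 3 lowest with a fragment and those called are named. The members, lists and rules were chosen with earlier results of these data known. Alternatives covered library scaling (DESeq2 1.42.0), filters, ratio, pseudocount, length and leaving out each replicate; the lengths of principal transcripts and of unshared sequence were chosen after seeing the data. Of the steps, the chi-square test was tried on simulated counts and the sign-flip test on set values. The simulated counts held counting error only, without the further spread between libraries seen here.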

Additional observations from a re-analysis of the deposited data

How the results depend on the processing

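The mean log2 ratios of the 8 pairs kept their sign under all 7 alternatives each, but that of Hspa4 against Hsph1 fell to 0.03 over principal transcripts, with the same sign in 2 of 3 libraries. The exact p cannot fall below 0.25. The share of members in all TPM was 3.50% over protein-coding genes outside the mitochondrial genome, 3.15% with exon length less 200 bases and 3.13% over principal transcripts, against 3.28%; the denominator or the length is what changes in these. The number of members at 100 TPM or more in every library was 34 or 35 throughout. The number called between libraries was 3 with no filter on the summed count (Hspa1a, Hspa1b and Hspb1, with 17.3% of all genes called), 3 at a looser ratio threshold (27.5%), and 0 to 1 when leaving out 1 library: 0 without replicate 2 (9.33% of all genes), 1 without replicate 3 (6.96%) and 1 without replicate 4 (7.97%).

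Fragments carry no molecular identifiers, so limits from a count of 0 cover counting error only. Depth limits Hspa1a, Hspa1b and Hspb1, with 20, 51 and 6 fragments at most in a library. Levels of different genes are compared over annotated lengths, and the deposited length exceeded the principal transcript by more than 1.5 times for 14 of 42 members (33.3%) and for 34.5% of 10144 protein-coding genes at 1 TPM or more. No paired comparison of groups was possible because the samples form 1 group, and only genes were paired, within each library.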
